A study of Mus musculus with 230 samples.

Results

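Of the 53278 gene rows of the count table, 7 named for their levels in intact sensory neurons of 8-month-old mice are described here: Tspan8, Baiap2l1, Tmem108, Cnr1, Cyp1b1, Itm2a and Celsr1. They were picked by name from these same libraries, for low or high levels in intact 8-month neurons. Their intact levels and their injury differences at 8 months are therefore given as a description with no test. The label holds for some of them only. Tspan8, Baiap2l1 and Tmem108 were lower in all 3 intact 8-month libraries than in each of the other 15 libraries, whereas Cnr1, Cyp1b1, Itm2a and Celsr1 overlapped with at least 1 other group.

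The neurons came from the L4 and L5 dorsal root ganglia of C57BL/6 X CAST/Ei cross mice, a cross shared by all groups. Enzymatically dissociated neurons were picked by hand and the RNA of the cytoplasm was made into SMART-seq2 libraries. The low-input RNA libraries formed 6 groups of 3: intact neurons at 1, 8 and 12 months, and neurons after sciatic nerve injury at 1, 8 and 12 months. No time after injury is given in the sources used here. A further 69 single cells were intact or injured neurons of 1 month or 1 year, and no single cell was of 8 months. The number of neurons in a low-input library and the animals they came from are not given in the sources used here, so the p-values measure only the spread between these libraries. The 12-month libraries had no counts on Y-linked genes, and Xist was counted in 5 of the 6, whereas all 1- and 8-month libraries had Y-linked counts and none on Xist, so sex and the 12-month age cannot be told apart.

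The low-input libraries held 7531967 to 19443627 counts on genes, of which the single feature CT010467.1 took 29.4% to 93.8%. In the intact 8-month libraries it took 65.7% to 68.2%, 3956440 to 4574940 counts remained, and 13031 to 14765 genes were detected. Spike-ins of the External RNA Controls Consortium (ERCC) took 3.11% to 26.9% of all their counts, against 2.00% to 10.6% in intact 1-month libraries. The second intact 12-month library stood apart, with 770328 counts outside the dominant feature and 40.5% of these mitochondrial. General neuronal genes, a list of 12 that includes Tubb3 and Snap25, summed to 5466 to 7655 CPM (counts per 1000000 counts after scaling) in intact 8-month libraries and to 3959 to 8392 CPM in the others, so the neuronal label of these libraries held.

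A dorsal root ganglion holds several kinds of sensory neuron. Large neurofilament-rich (NF) neurons serve touch and body position and express Nefh, Ntrk2, Ntrk3 or Pvalb. Small nociceptors are either peptidergic (PEP), with the neuropeptide gene Calca, or non-peptidergic (NP), with the receptor gene Mrgprd. The 7 genes encode proteins of different kinds. Tspan8 is a tetraspanin, a membrane protein that gathers partner proteins into microdomains. Baiap2l1 is an I-BAR protein that bends the plasma membrane and binds actin regulators. Tmem108, also called retrolinkin, is a membrane protein of endosomes that take up the BDNF receptor TrkB. Cnr1 encodes the CB1 cannabinoid receptor, which lowers transmitter release. Cyp1b1 is a cytochrome P450 that oxidises estradiol and aromatic hydrocarbons and is induced through the aryl hydrocarbon receptor. Itm2a is a small transmembrane protein with a BRICHOS domain. Celsr1 is an atypical cadherin of planar cell polarity, the alignment of neighbouring cells in a tissue sheet.

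Tspan8 (chromosome 10, 115816832 to 115849893, plus strand, GRCm38) was all but missing from intact 8-month neurons. Its levels there were 0, 1.73 and 0.575 CPM, from 0, 16 and 7 counts. The intact 1-month libraries had 48.2, 56.8 and 52.8 CPM and the intact 12-month libraries 64.5, 36.1 and 68.2 CPM. The mean in intact 8-month neurons, 0.768 ± 0.881 CPM (SD, n = 3), was 68.5 times lower than at 1 month and 73.2 times lower than at 12 months. Without the second intact 8-month library the mean was 0.287 CPM, 183 and 196 times lower, and without the first it was 1.15 CPM, 45.7 and 48.8 times lower. After injury the gene was present at every age. The injured libraries had 17.4, 28.7 and 12.4 CPM at 1 month, 14.3, 54.1 and 24 CPM at 8 months, and 32.8, 15.5 and 35.5 CPM at 12 months. At 1 and 12 months every injured library was below every intact one, at 8 months every injured library was above. The 12-month separation was narrow, since the 36.1 CPM of the second intact library, from 20 counts, lay next to 35.5 CPM in the third injured one. The group means ran from 56.3 CPM (intact 12 months) over 52.6 (intact 1 month), 30.8 (injured 8 months), 27.9 (injured 12 months) and 19.5 (injured 1 month) to 0.768 CPM. Neighbours in that order overlapped in their libraries, except the last pair.

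**Figure D1:**
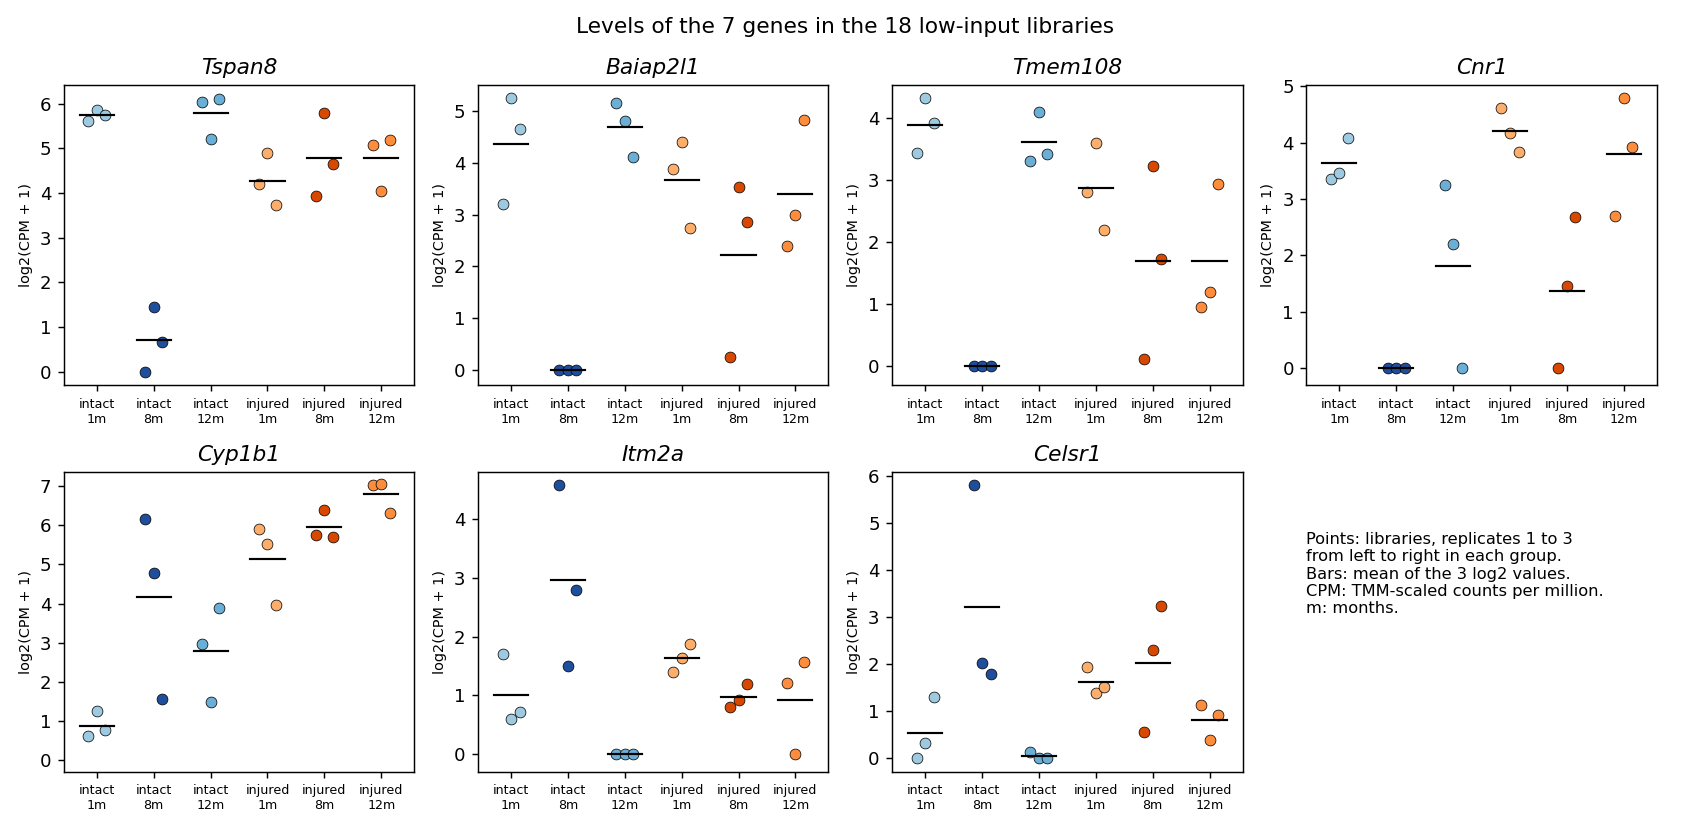
Levels of the 7 genes in each low-input library, as log2(CPM + 1), by group; points are libraries and bars the mean of the 3 log2 values. The intact 8-month points for Tspan8, Baiap2l1 and Tmem108 lie below all others, while those for Cnr1, Cyp1b1, Itm2a and Celsr1 overlap with other groups.

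Baiap2l1 (chromosome 5, 144264526 to 144358112, minus strand) had no count in any intact 8-month library. With a floor of 3 counts over the group, its level with the counts of each group pooled (26.9 CPM at 1 month and 29.5 CPM at 12 months) was at least 279-fold lower than at 1 month and at least 306-fold lower than at 12 months. Intact neurons had 8.25, 37 and 24.2 CPM at 1 month and 34.8, 27.1 and 16.3 CPM at 12 months. Injured neurons had 13.7, 20.1 and 5.66 CPM at 1 month and 4.27, 6.91 and 27.5 CPM at 12 months. At 8 months the injured libraries had 0.185, 10.6 and 6.28 CPM, so that the first of them, with 2 counts, was close to the intact libraries of that age. The injured and intact groups of 1 and 12 months overlapped.

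Tmem108 (chromosome 9, 103482947 to 103761837, minus strand) also had no count in the 3 intact 8-month libraries. By pooled counts the level was at least 162-fold lower than at 1 month and at least 97.4-fold lower than at 12 months. Intact levels were 9.90, 19 and 14.2 CPM at 1 month and 8.90, 16.3 and 9.78 CPM at 12 months. Injured levels were 6.05, 11.2 and 3.62 CPM at 1 month, 0.0925, 8.40 and 2.32 CPM at 8 months, and 0.942, 1.29 and 6.70 CPM at 12 months. At 12 months every injured library was below every intact one, and at 8 months every injured library was above, although by a single count in the first of them. Across the 18 libraries the log2 level of Tmem108 followed that of Baiap2l1 with Pearson's r of 0.938, the highest of all genes tested. The reads of both genes are counted without strand. RefSeq places the protein-coding gene Bri3 and 2 long non-coding RNAs over the span of Baiap2l1 and 5 long non-coding RNAs over that of Tmem108, and reads where exons of such partners overlap are uncertain. The row of Bri3 itself had 9.56 ± 1.36 CPM (SD, n = 3) in intact 8-month and 3.61 ± 0.890 CPM in intact 1-month neurons, so it was not low where Baiap2l1 was.

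That r includes the 3 intact 8-month libraries for which both genes were picked. The upstream windows of Baiap2l1 and Tmem108, which had no count in those libraries and are lower there than in all others, are shown for comparison, and both windows shown are CpG-rich. Over the 250 bases upstream of the RefSeq start (GRCm38.p6), Baiap2l1 has 21 CpG and Tmem108 has 27 at the first of its 2 starts, against a median of 6 in 32851 windows of the same length. At the second start of Tmem108, not shown, the window has 1 CpG and also holds CCAAT 2 times. The sequences below run 5′ to 3′ on the minus strand and hold only bases upstream of both gene models. They are chr5:144358113-144358362 for Baiap2l1 and chr9:103761901-103762087 for Tmem108, with capitals for CCAAT or its complement ATTGG, searched on both strands. No capital letters overlap a match of GCGTG.
Baiap2l1: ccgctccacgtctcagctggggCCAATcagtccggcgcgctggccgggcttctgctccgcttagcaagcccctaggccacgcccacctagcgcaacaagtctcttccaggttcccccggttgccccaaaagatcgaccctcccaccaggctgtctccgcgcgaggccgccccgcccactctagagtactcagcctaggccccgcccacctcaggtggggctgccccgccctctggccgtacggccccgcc
Tmem108: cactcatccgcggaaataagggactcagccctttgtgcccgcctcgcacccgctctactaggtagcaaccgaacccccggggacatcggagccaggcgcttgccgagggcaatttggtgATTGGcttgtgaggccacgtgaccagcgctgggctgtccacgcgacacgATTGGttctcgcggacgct
CCAAT was found 1 time for Baiap2l1 and 2 times for Tmem108, and 33.8% of all windows hold it. Among the other members the window of Tspan8 has 4 CpG, those of Itm2a and Cyp1b1 have 6 and 12, and the 3 of Cnr1 have 36, 28 and 5. None of these holds CCAAT.

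Cnr1 (chromosome 4, 33924593 to 33948831, plus strand) had no count in any intact 8-month library either, at least 120-fold lower than the 1-month level by pooled counts. It was not particular to that group. Intact 12-month libraries had 8.47, 3.61 and 0 CPM, from 99, 2 and 0 counts, and injured 8-month libraries had 0, 1.74 and 5.39 CPM. The other groups were well supplied, with 9.22, 10.1 and 16 CPM in intact 1-month, 23.4, 17 and 13.3 CPM in injured 1-month, and 5.46, 26.6 and 14.1 CPM in injured 12-month neurons. Cnr1 was thus low in both conditions at 8 months, and all 3 injured 8-month libraries were below all other injured libraries.

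Markers of large neurons were set beside the low genes, and their part in the result was not tested. The summed NF list (13 genes) was 2615 to 2882 CPM in intact 8-month libraries, within the 1527 to 17570 CPM of the other intact libraries, and none of its genes was at 0 in all 3. The 17570 CPM was in the second intact 12-month library, and the next highest of the other intact libraries was 4696 CPM. Nefm, at 1593 to 1822 CPM, and Necab2, at 2.06 to 15.7 CPM, overlapped with the other intact libraries, as did Nefh, Ldhb, Fam19a1 and Cntnap2. Cacna1h had 29.4, 24.3 and 0.246 CPM, against a median of 8.17 CPM at 1 month. Pvalb (0.412, 0 and 157 CPM), Spp1 (0, 0 and 110), Runx3 (0, 0 and 9.94) and Calb1 (0, 0 and 1.64) were at or near 0 in the first and second intact 8-month libraries. Pvalb had 12.6 to 228 CPM in the other intact libraries, whereas Spp1, Runx3 and Calb1 were also at 0 in the third intact 12-month library. The receptor genes Ntrk2 and Ntrk3, chosen here after their values were seen, were low in all 3 intact 8-month libraries. Ntrk2 had 0, 3.03 and 0.493 CPM in intact 8-month libraries, against 0.0750, 45.8 and 65.1 CPM at 1 month and 21.5, 21.7 and 1.30 CPM at 12 months. Ntrk3 had 25.3, 28 and 34.9 CPM, against 69.8 to 542 CPM in the other intact libraries. The first injured 8-month library, where Baiap2l1, Tmem108 and Cnr1 were at or near 0, had 4.07 CPM of Ntrk3, the lowest NF sum of all libraries (1089 CPM) and 448 CPM of Mrgprd. In a library of picked neurons, fewer neurons of a kind and less RNA per neuron cannot be told apart.

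Cyp1b1 (chromosome 17, 79706953 to 79715041, minus strand) was high in some intact 8-month libraries and in all injured ones. Intact neurons had 70.8, 26.3 and 1.97 CPM at 8 months, 0.525, 1.40 and 0.692 CPM at 1 month, and 6.85, 1.81 and 13.7 CPM at 12 months. The 8-month libraries were all above those of 1 month, and the third overlapped with those of 12 months. The mean of 33 ± 34.9 CPM (SD, n = 3) fell to 14.1 CPM without the first library. Injured neurons had 58.6, 45 and 14.6 CPM at 1 month, 53.4, 82.4 and 50.9 CPM at 8 months, and 131, 131 and 79.1 CPM at 12 months. At 1 and 12 months every injured library was above every intact one, with means 45.1 and 15.3 times as high, whereas at 8 months the first intact library lay within the injured range. Since Cyp1b1 is a known target of the aryl hydrocarbon receptor, its upstream window (chr17:79715062-79715311, minus strand, GRCm38.p6) is shown with the receptor's core motif GCGTG, or its complement CACGC, in capitals. The motif was searched on both strands.
Cyp1b1: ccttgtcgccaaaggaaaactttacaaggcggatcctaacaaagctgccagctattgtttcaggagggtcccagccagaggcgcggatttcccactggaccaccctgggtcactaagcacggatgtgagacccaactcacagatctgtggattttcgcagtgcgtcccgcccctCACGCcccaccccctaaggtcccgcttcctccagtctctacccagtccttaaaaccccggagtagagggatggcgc
The motif occurs 1 time, in a window without CCAAT, and 28.2% of all windows hold it.

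Itm2a (chromosome X, 107397099 to 107403376, minus strand) and Celsr1 (chromosome 15, 85898929 to 86033777, minus strand) were the other genes named for high levels. Itm2a had 22.9, 1.84 and 5.91 CPM in intact 8-month neurons, and the second library lay within the 0.513 to 2.25 CPM of intact 1-month and the 1.63 to 2.65 CPM of injured 1-month neurons. It had no count in any intact 12-month library. Celsr1 had 54.8, 3.03 and 2.46 CPM in intact 8-month neurons, all above the other intact libraries (0 to 1.44 CPM). The injured libraries had 0.293 to 8.33 CPM of Celsr1, with the highest at 8 months, and so overlapped.

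Both genes rest on the first intact 8-month library. Without it the group mean fell from 10.2 to 3.88 CPM for Itm2a and from 20.1 to 2.75 CPM for Celsr1. That library also had the fewest genes detected of its group (13031) and the most ERCC. Relative to spike-ins, Itm2a was at 0.0308 to 0.0516 counts per 1000 ERCC counts in intact 8-month and 0.0240 to 0.0379 in intact 1-month neurons, and at 0.154 to 0.277 in injured 1-month neurons. Cyp1b1 and Celsr1 overlapped between intact 8- and 1-month libraries on that scale, at 0.0103 to 0.608 against 0.00561 to 0.103 and at 0.0129 to 0.124 against 0 to 0.0594. Tspan8, at 0 to 0.0400, did not overlap with 0.515 to 4.20 at 1 month, but did with 0.00892 to 0.297 at 12 months. Baiap2l1 and Tmem108, with no count, remain at 0 on any scale.

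Of 14212 genes tested, 0.647% had all 3 intact 8-month libraries below the other 15, as Tspan8, Baiap2l1 and Tmem108 did, and 0.922% had them all above, as none of the 7 did. Of 8343 genes that averaged 5 CPM or more in the other 15 libraries, 15 had no count in the 3 intact 8-month libraries (0.180%), and Baiap2l1, Tmem108 and Cnr1 were among them. The same count was 19 for intact 12-month neurons, 2 for intact 1-month neurons and 0 to 1 for the injured groups. That minimum was chosen after the data were seen. Per kilobase of exon, the intact 1-month level was 30.9 CPM for Tspan8, 6.88 for Baiap2l1, 1.83 for Cnr1, 1.45 for Tmem108, 0.649 for Itm2a, 0.170 for Cyp1b1 and 0.0509 for Celsr1.

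The age changes in injured neurons were not used to choose 6 of the genes and were tested for these with edgeR's quasi-likelihood test. None of the 6 passed the threshold. Between 1 and 8 months 0 of 6 were called at an adjusted p below 0.05, where 0.225% of all genes tested were called, and between 8 and 12 months 0 of 6, where 0.0633% were called. Of these 12 tests 2 had an unadjusted p below 0.05, both for Cnr1. Over all 14212 genes, 709 had such a p between 1 and 8 months and 610 between 8 and 12 months. By DESeq2 and by limma-voom 0 of 6 were called in either comparison.

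Cnr1 came nearest. It was 2.38 ± 2.75 CPM (SD, n = 3) in injured 8-month and 17.9 ± 5.10 CPM (n = 3) in injured 1-month neurons, with no overlap. The log2 change was -2.89 ± 1.13 (SE) with a 95% interval of -5.32 to -0.47 and an edgeR adjusted p of 0.853. From 8 to 12 months, a comparison that shares the 8-month libraries, it was 2.67 ± 1.12 with an adjusted p of 1.00. It passed the threshold in both comparisons without an expression filter only, with adjusted p of 0.000215 and 0.00222 in a range over all alternatives from there to 1.

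**Figure D2:**
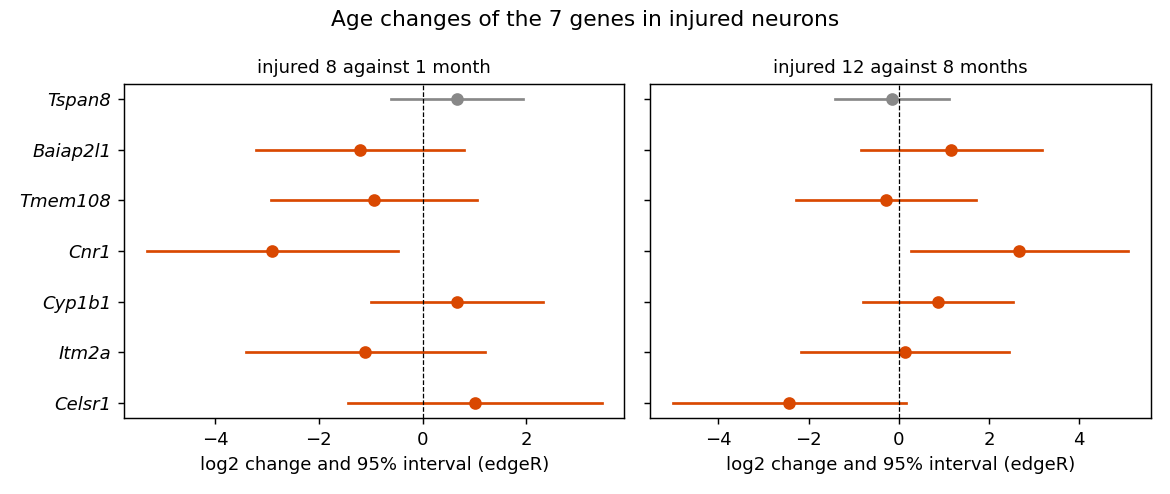
Log2 changes with age in injured neurons, with 95% intervals from edgeR; Tspan8, in grey, is shown without a test. The intervals for Cnr1 leave out 0 before adjustment (-5.32 to -0.47 and 0.27 to 5.08), and all others include it.

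The other intervals were wide. From 1 to 8 months they reached from -3.21 to 0.80 for Baiap2l1, -2.92 to 1.05 for Tmem108, -0.998 to 2.31 for Cyp1b1, -3.41 to 1.19 for Itm2a and -1.43 to 3.45 for Celsr1. From 8 to 12 months they were -0.84 to 3.17 for Baiap2l1, -2.29 to 1.70 for Tmem108, -0.79 to 2.53 for Cyp1b1, -2.17 to 2.45 for Itm2a and -5.01 to 0.16 for Celsr1. Each interval therefore left room for a change of several-fold in at least 1 direction, and such changes could go undetected at this spread. Some limits lay closer to no change, at -0.998 for Cyp1b1 and 0.80 for Baiap2l1 from 1 to 8 months and 0.16 for Celsr1 from 8 to 12 months. Tspan8, described without a test, had log2 changes of 0.66 and -0.14.

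Genes of the same families or pathways were tested in the same injured comparisons and between ages in intact neurons. In the injured comparisons edgeR called no gene of the 7 lists. At an unadjusted p below 0.05 there were 2 tetraspanins, 2 I-BAR or actin genes and 1 aryl hydrocarbon receptor gene between 1 and 8 months, and 3, 1 and 1 between 8 and 12 months. Of all 14212 genes tested, 709 and 610 were below it in these comparisons. From 1 to 8 months in intact neurons the median log2 change was -0.24 for the tetraspanins, -0.01 for the I-BAR list, 0.10 for the endocannabinoid list, -0.04 for the aryl hydrocarbon receptor list, -0.18 for the BRICHOS list and 0.55 for the polarity list, against -0.01 over all genes. The BRICHOS list also holds Bri3, which was listed by its symbol and has no BRICHOS domain. Of the 24 tetraspanins tested besides Tspan8, 0 were called between 1 and 8 months in intact neurons, where 0.922% of all genes were called. Between 8 and 12 months, where 6.69% were called, 1 rose and 0 fell. The tetraspanin that rose was Cd81, a partner of integrins and immune receptors, from 1.69 ± 1.73 to 20.2 ± 16.5 CPM (SD, n = 3 each; edgeR adjusted p = 0.0343). It had 0, 1.62 and 3.45 CPM at 8 months and 33.9, 1.81 and 24.8 CPM at 12 months, so the groups overlapped. Its 1-month intact values of 19.2, 20.5 and 34.3 CPM were, like those of Tspan8, above all 8-month values, and 8 of 27 alternatives lost the call, with adjusted p up to 0.554. Among the libraries of the comparison it was lost without the second of 8 months (0.0994) and without the first (0.0832) or the third (0.0642) of 12 months.

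Among 12 I-BAR proteins and actin partners besides Baiap2l1, 1 fell between 8 and 12 months in intact neurons and 0 rose, and none was called between 1 and 8 months. It was Mtss1, another membrane-bending I-BAR protein. It had 19, 59.2 and 35.3 CPM at 8 months and 11, 10.8 and 6.52 CPM at 12 months, with no overlap (edgeR adjusted p = 0.00984), and 25 of 27 alternatives kept the call (adjusted p 6.9e-05 to 0.515). Its 1-month level (46.6, 23.8 and 33.6 CPM) overlapped with that at 8 months, unlike Baiap2l1. Of 17 genes of the TrkB signalling endosome besides Tmem108, none was called in any of the 4 comparisons; their median log2 change from 1 to 8 months in intact neurons was 0.20.

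Of 13 other endocannabinoid genes, 0 were called between 1 and 8 months, and 1 fell and 0 rose from 8 to 12 months in intact neurons. It was Naaa, which breaks down palmitoylethanolamide, at 24.5 ± 6.86 and 4.998 ± 4.44 CPM (edgeR adjusted p = 0.0374, lost under 12 of 27 alternatives, range 0.00366 to 0.582). Without the second 8-month library the adjusted p was 0.0958, and without the third 12-month library 0.0788. Of 14 other genes of the aryl hydrocarbon receptor pathway 1 fell from 8 to 12 months and none was called from 1 to 8 months. It was the receptor gene Ahr itself, with 18.1, 0.973 and 0 CPM at 8 months and no count at 12 months. The call (edgeR adjusted p = 0.0413) was lost under 16 of 26 alternatives (1.11e-06 to 0.579), with 0.131 without the first intact 8-month library and 0.141 without the first of 12 months. Among the intact libraries the first of 8 months was highest in Cyp1b1 and in Ahr. The injured 12-month libraries, higher in Cyp1b1, had 2.64 to 3.89 CPM of Ahr.

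None of the 4 other genes tested of the BRICHOS list, Bri3 among them, was called. Of 18 other genes of planar cell polarity 1 fell from 8 to 12 months in intact neurons and none was called from 1 to 8 months. It was Vangl1, a core polarity membrane protein, with 16.3, 5.62 and 0 CPM at 8 months and no count at 12 months (edgeR adjusted p = 0.0354, lost under 9 of 26 alternatives, range 3.31e-07 to 0.585). It was 0.0709 without the first 8-month library and 0.126 without the first of 12 months. None of these 5 calls was made with only the 6 libraries compared, where 0 genes were called in that comparison. The same held for limma-voom with quality weights on all 18 libraries, again with 0 genes called. The main fit on all 18 called 951, where 3597 had an unadjusted p below 0.05, and DESeq2 called 2247.

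The genes most like each member over the 18 libraries by Pearson's r of log2(CPM + 1) are given as a description. The libraries share groups, so r reflects differences between groups. For Tspan8 they were Ercc8 (r = 0.865), a DNA repair factor, and Baiap2l1 (0.856). For Baiap2l1 they were Gabrb2 (0.945), a GABA-A receptor subunit, and Ntng1 (0.941), a membrane-anchored netrin. Mean levels of Ntng1 were 25.6, 0.0821 and 30.2 CPM in intact neurons of 1, 8 and 12 months, and 18.8, 13 and 8.98 CPM in injured ones. For Tmem108 Tpbgl followed Baiap2l1 (0.919), and for Cnr1 they were Lrrc8a (0.867), a volume-regulated anion channel subunit, and the zinc finger gene Zfp521 (0.865). Cyp1b1 was closest to Trp53i11 (0.900) and to Loxl2 (0.863), a lysyl oxidase that cross-links collagen. Loxl2 means were 0.121, 1.96 and 0.0571 CPM in intact and 8.75, 7.39 and 11.2 CPM in injured neurons, also higher after injury. Itm2a was closest to Hoxd11 (0.896) and Ptger1 (0.877), and Celsr1 to Pde2a (0.901) and Papln (0.869), genes with group means of at most 5.53 CPM.

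Markers of other neuron classes and cell types were set beside the members in the intact libraries by an exact permutation test of the mean log2 sums, 3 intact 8-month against 6 other intact libraries (84 arrangements, two-sided, adjusted over 11 lists). No list passed, but the smallest p these arrangements allow, 0.0119, adjusts to 0.131 for 1 list alone, so the design could hardly pass the threshold. Schwann cell markers were the nearest, at 450 to 910 CPM in intact 8-month against 219 to 461 CPM in other intact libraries, a log2 difference of 1.01 (exact permutation p = 0.0357, adjusted p = 0.393). NP markers were 89.4, 2913 and 1819 CPM in the 3 intact 8-month libraries and 99.3 to 1061 CPM in the others (adjusted p = 0.753, exact permutation). The first library, which held the high values of Cyp1b1, Itm2a and Celsr1, had no Mrgprd and the highest Calca of the 9 intact libraries (2612 CPM), and the others had 649 and 303 CPM of Mrgprd. The part of this mixture in the members' levels was not tested. Of 12 immune markers 6 were at 0 in all 3 intact 8-month libraries, as were 5 of 14 vascular markers, among them Pecam1 and Cdh5. Such zeros were not particular to that group. In all 3 intact 12-month libraries the immune markers Aif1, Cx3cr1, C1qa, C1qc, Tyrobp, Ptprc, Cd68 and Cd74 were at 0. The vascular markers Cldn5, Emcn, Kdr, Ly6c1, Cspg4 and Acta2 were at 0 there too, while Pecam1 and Cdh5 were not.

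**Figure D3:**
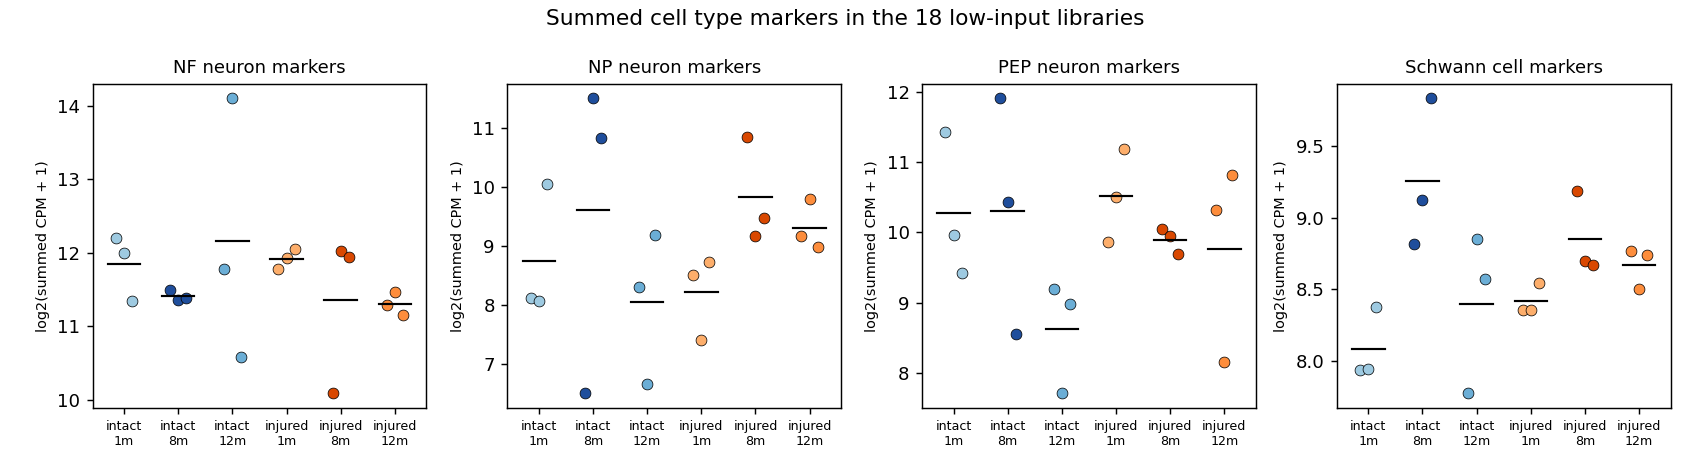
Summed levels of 4 marker lists in each low-input library, as log2(summed CPM + 1); points are libraries, bars the means of 3. NP and PEP sums differ widely among the 3 intact 8-month libraries, and Schwann cell sums in that group overlap with those at 12 months.

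Single cells show which of the picked cells carry the genes. Of 69 cells, 55 with at least 100000 counts outside the dominant feature were kept, a minimum chosen after the data were seen: 12 intact and 17 injured at 1 month, 8 intact and 18 injured at 1 year. The list of general neuronal genes summed to 16.6 to 21356 CPM in intact and 843 to 27315 CPM in injured 1-month cells. At 1 year it summed to 2164 to 17134 and 1198 to 24370 CPM. The group medians were 13542 to 18492 CPM, so the neuronal label was weak for some of the kept cells. With no animal named, the cells of a group were treated as a single sample, and nothing was tested between groups. CPM here leave out the dominant feature and are not on the scale of the low-input libraries. A cell was counted for a gene at 10 CPM or more. Median counts per kept cell were 1555858 in intact and 2504750 in injured 1-month cells, and 7145018 and 3917071 at 1 year. Intervals on shares and pooled levels cover counting error only.

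Tspan8 and Baiap2l1 met in the same cells, most of them low in Calca. Tspan8 was counted in 29 of 55 cells and Baiap2l1 in 15, and 12 cells had both, 41.4% of the Tspan8 cells and 80% of the Baiap2l1 cells. Among the 12, only cell 9 of the intact 1-month group and cell 4 of the intact 1-year group were intact, and all others were injured. That 1-month cell had 123203 counts, so its 24.4 CPM of Baiap2l1 rested on few counts. The profile of the 12 cells is thus mainly that of injured cells, which were also the larger part of the kept cells. In these 12 cells Calca had a median of 26.7 CPM against 1694 CPM in the other 43, although 4 of the 12 had 100 CPM or more, up to 8382 CPM. Nefh alone did not set them apart, at 662 to 6262 CPM (median 1880) in the 12 and up to 8164 CPM (median 860) in the others, 40 of which had at least 100 CPM. The summed NF list was 3321 to 30988 CPM in the 12 and 334 to 29456 CPM in the others. Over the 55 cells Spearman's rho with that sum was 0.514 for Baiap2l1, 0.399 for Tmem108 and 0.130 for Tspan8. With the PEP sum rho was -0.389 for Baiap2l1, and with the NP sum it was 0.451 for Tspan8. Ntrk2 reached 100 CPM in 5 of the 12 and Pvalb in 2. No cell of the 12 had 100 CPM of Mrgprd. Median Tspan8 was 206 CPM in them and 0.543 CPM in the others, a difference set in advance by choosing the 12 on Tspan8. Baiap2l1 was counted in 10 of 17 cells with Calca below 100 CPM (58.8%, exact 95% interval 32.9% to 81.6%) and in 5 of 38 with more (13.2%, 4.41% to 28.1%). Tspan8 was not held to those cells. It was counted in 7 of 9 Mrgprd cells, at up to 57.8 CPM, where Baiap2l1 was in 0 of 9, which allows a share of up to 33.6% (exact 95% interval).

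**Figure D4:**
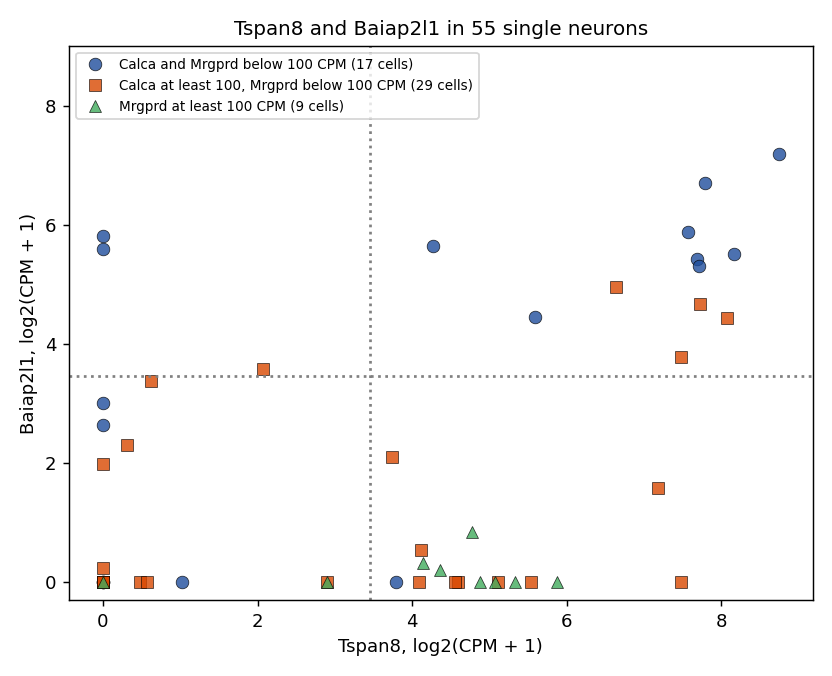
Tspan8 against Baiap2l1 in 55 cells picked as single neurons, both as log2(CPM + 1). Shapes and colours give the Calca and Mrgprd class and dotted lines mark 10 CPM. The upper right field holds the 12 cells with both genes, 8 of them low in Calca and Mrgprd, and Mrgprd cells hold Tspan8 without Baiap2l1.

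Tmem108 was sparse in single cells, with 4 of 55 cells counted, 3 of them among the 12 with Tspan8 and Baiap2l1. Its highest value, 90.1 CPM, was in the injured 1-year cell that also led for Tspan8 (427 CPM) and Baiap2l1 (145 CPM). That cell had 613 CPM of Ntrk2, the receptor whose endosomes Tmem108 belongs to, and 3 of the 4 cells with Tmem108 were among the 15 with at least 100 CPM of Ntrk2. Cnr1 was counted in 20 cells, in 10 of 17 with Calca below 100 CPM and in 10 of 38 with more. It was in 9 of 15 Ntrk2 cells (60%, exact 95% interval 32.3% to 83.7%) and 11 of 40 others (27.5%, 14.6% to 43.9%).

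Across the cell groups, pooled Tspan8 was 21.8 CPM in intact and 48.3 in injured cells at 1 month, and 63 and 116 at 1 year. Cells counted were 5 of 12, 8 of 17, 4 of 8 and 12 of 18. Pooled Baiap2l1 was 6.98 and 20.7 CPM at 1 month and 7.91 and 26 CPM at 1 year, so for both genes the injured cells pooled higher. Without the injured cell highest in Tspan8 its levels were 25.7 CPM at 1 month and 92.1 CPM at 1 year, and without that highest in Baiap2l1 they were 9.85 and 16.7 CPM for Baiap2l1, still above those of all intact cells. Without the intact cell highest in Tspan8 at 1 year the level was 30.6 CPM, and without that highest in Baiap2l1 1.09 CPM. Pooling weights each cell by its counts. The intact 1-month cells with 211 and 177 CPM of Tspan8 had only 123203 and 609228 counts. Cell medians of Tspan8 were 0.272 CPM in intact and 0 in injured 1-month cells, and 6.91 and 16.5 CPM at 1 year. Those of Baiap2l1 were 0 and 0 at 1 month and 0.171 and 0.123 CPM at 1 year. Unlike the pooled levels, the means of both genes in the low-input libraries of 1 and 12 months were lower after injury. The low-input libraries and the cells were picked separately, and this difference was not tested. For Cnr1 the pooled level was 16.4 CPM intact and 8.31 CPM injured at 1 month, and 50.7 and 12.3 CPM at 1 year. Without the cell highest in Cnr1 the intact 1-month level was 8.33 CPM and the intact 1-year level 28.4 CPM, so the 1-month difference rested on 1 cell. Pooled Tmem108 was 0.138 and 3.43 CPM at 1 month and 3.62 and 9.11 CPM at 1 year. A single cell gave 601 of the 838 counts in injured 1-year cells, and without it the level was 2.78 CPM, below that of intact cells.

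At 1 month, pooled Cyp1b1 was 12.2 CPM without and 110 CPM with injury, but at 1 year the 2 levels were 228 and 115 CPM. Without the highest intact cell these intact levels were 1.21 and 142 CPM. It was counted in 2 of 12, 9 of 17, 7 of 8 and 13 of 18 cells. A single injured 1-month cell had 2829 CPM, with no count of Nefh and 1694 CPM of Calca. The 1-month order matched that of the low-input libraries, and the 1-year order did not, since intact 12-month libraries had 1.81 to 13.7 CPM and injured ones 79.1 to 131 CPM. Cyp1b1 was in 1 of 9 Mrgprd cells and in 30 of 46 others.

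**Figure D5:**
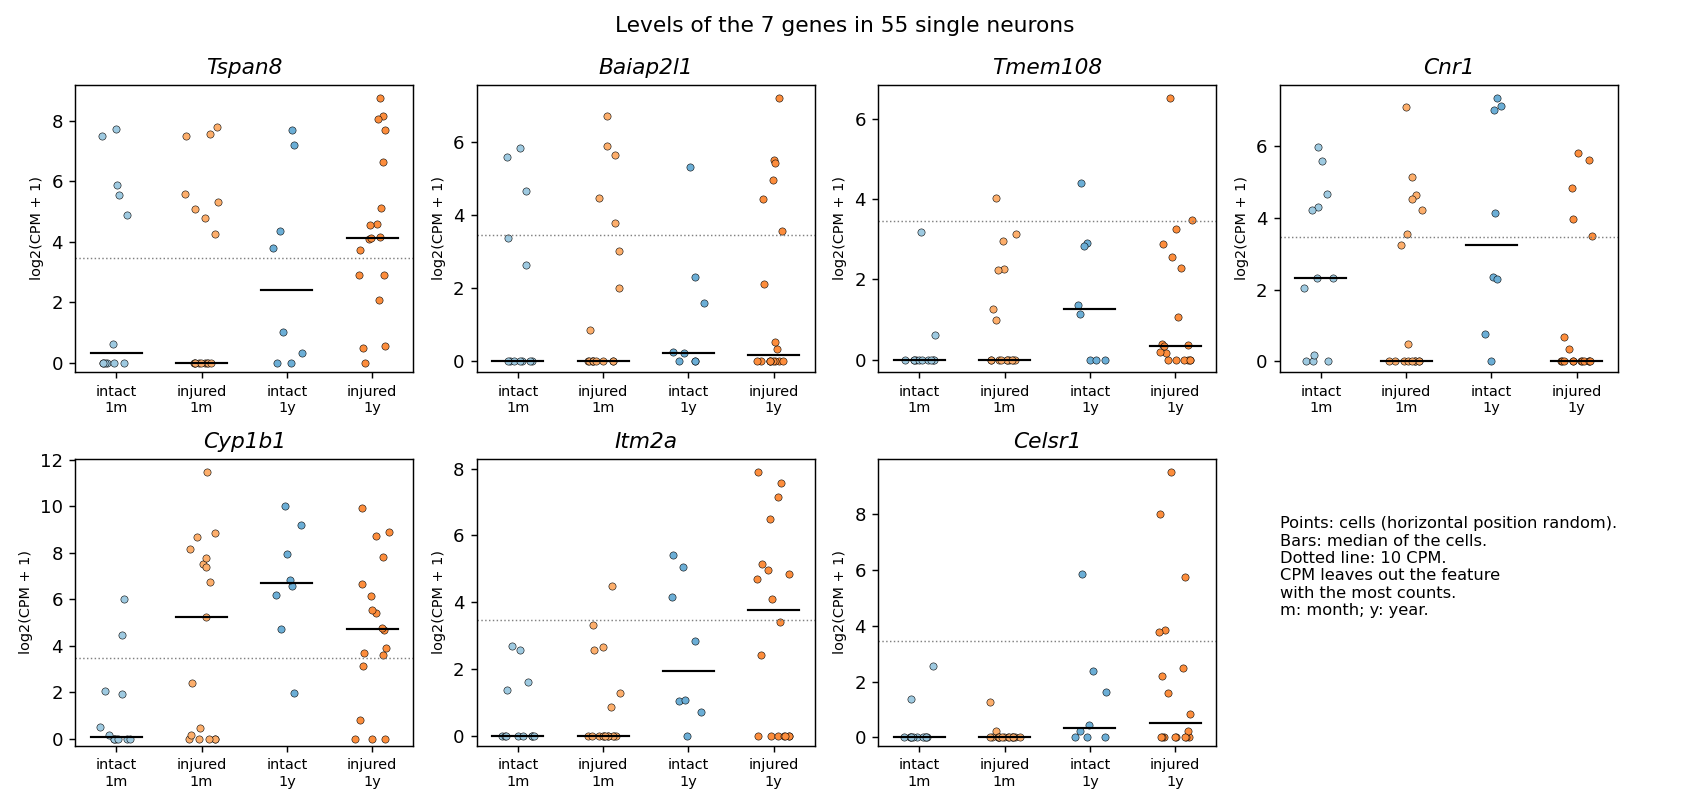
Levels of the 7 genes in 55 cells picked as single neurons, as log2(CPM + 1), by group. Points are cells, bars medians and dotted lines 10 CPM. Levels are spread widely within a group, only 4 cells lie above the line for Tmem108, and those above it for Celsr1 are all 1-year cells.

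Itm2a and Celsr1 were mostly found in 1-year cells. Itm2a was counted in 0 of 12 and 1 of 17 cells at 1 month, and in 3 of 8 intact and 9 of 18 injured cells at 1 year. Celsr1 was counted in 0 of 12, 0 of 17, 1 of 8 and 5 of 18. Of the 6 cells with Celsr1, 4 also had Itm2a, 66.7% of the Celsr1 cells and 30.8% of the Itm2a cells, and none had Baiap2l1. Pooled Celsr1 in injured 1-year cells was 44 CPM, with 724 CPM in 1 cell, a median of 0.478 CPM and a pooled level of 12.4 CPM without that cell. All 6 Celsr1 cells had at least 100 CPM of Calca.

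Satellite glia markers moved with Celsr1 over the cells. The summed list of 9 genes had a median of 10297 CPM (427 to 44983) in the 6 Celsr1 cells and 381 CPM (8.30 to 53660) in the 49 others, and Spearman's rho was 0.58 over 55 cells. For the 13 Itm2a cells the median was 1494 CPM against 323 CPM in 42 others. The list was also higher in 1-year than in 1-month cells, with medians of 1492 and 1124 CPM in intact and injured 1-year and 224 and 162 CPM in 1-month cells, so glial RNA and age cannot be told apart here. In the low-input libraries the same list stood at 97.0 to 532 CPM in intact 8-month and 46.6 to 757 CPM in other intact libraries (exact permutation p = 0.988, adjusted p = 0.988).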

How the data were processed

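The deposited values used here are raw fragment counts per gene in 1 table; per the file headers they were made with featureCounts 1.5.2 in paired mode, unstranded, with unique reads only, over GENCODE vM16 exons with ERCC sequences added. Trim Galore, STAR and mm10 are named in the submitters' processing notes. The other deposited column used is the summed exon length (unit: other, in bp). The methylation samples were not analysed here.

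The members and gene lists were chosen with earlier results of these data known. The 18 low-input libraries, 3 in each of 6 groups, were fitted with edgeR 4.0.16 (R 4.3.3): filterByExpr, TMM scaling, 1 mean per group and a robust quasi-likelihood test, with 14212 genes, 12 residual degrees of freedom and a biological coefficient of variation of 0.543. A gene was called where its p, adjusted over all genes by Benjamini and Hochberg's method, was below 0.05. SE is the log2 change divided by the square root of F. CPM are TMM-scaled counts per 1000000, log2 levels used a pseudocount of 1, and folds against a group at 0 used a floor of 3 counts over the group. Tests are two-sided. The genes named are the members, the 2 tested genes most like each over 18 libraries, and, of each list, at most 4 other genes called per comparison. Promoter windows are RefSeq's, matched for 6 of 7 members by symbol. The fit was tested on simulated counts. Alternatives were other scalings (DESeq2 1.42.0 median-of-ratios, ERCC totals, no dominant feature), no filter, DESeq2, limma-voom (limma 3.58.1), only the 6 libraries compared, a covariate, a replicate block and leaving out each library.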

Additional observations from a re-analysis of the deposited data

Results flagged for a closer look

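For 2 genes the difference between injured and intact libraries went opposite ways at different ages, in every library; these differences between ages were not tested, since the genes were chosen on these libraries. For Tspan8 the injury difference, as log2 of mean CPM + 1, was lower at 1 month than at 8 months by -5.56, from means of 19.5 injured and 52.6 intact CPM at 1 month and 30.8 and 0.768 CPM at 8 months. Between 12 and 8 months it differed by -5.15, with 27.9 injured and 56.3 intact CPM at 12 months. There the lowest intact library, at 36.1 CPM from 20 counts, was barely above the highest injured one, at 35.5 CPM. For Tmem108 the difference between 12 and 8 months was -3.87, from 2.98 injured and 11.6 intact CPM at 12 months and 3.61 and 0 CPM at 8 months. In the first injured 8-month library this direction rested on 1 count of Tmem108.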

How the results depend on the processing

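Counts of called genes moved most. Injured 8 against 1 month had 32 called genes, and 5 with ERCC scaling, 234 with no expression filter, 119 by DESeq2, 432 by limma-voom, 19 with the dominant feature's share as a covariate and 17 to 39 with 1 library left out. Injured 12 against 8 months had 9, and 103 with no filter, 57 by DESeq2, 505 by limma-voom, 2 with only the 6 libraries compared, 5 with the covariate and 5 to 12 with 1 library left out. Intact 8 against 1 month had 131, and 372 with ERCC scaling, 841 with no filter, 842 by DESeq2, 39 by limma-voom, 6 with only the 6 libraries, 6 with the covariate and 37 to 407 with 1 left out. Intact 12 against 8 months had 951, and 1734 with no filter, 2247 by DESeq2, 0 by limma-voom, 0 with only the 6 libraries and 386 to 2110 with 1 left out. ERCC scaling shifted the median of all genes by -1.40, 1.12, -2.06 and -2.08 in these 4 comparisons and split calls 1 higher and 4 lower, 5 and 1, 1 and 371, and 24 and 842. The cause was not tested.

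Same-numbered libraries did not all deviate together (correlations of -0.37 to 0.51 over 3992 genes), so the numbers were not taken as pairs. With the replicate block 25, 6, 59 and 644 genes were called in the 4 comparisons.

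Some log2 changes in injured neurons, none past the threshold, reversed. For 8 against 1 month these were Tspan8 (-0.45 with ERCC scaling, -0.023 to 1.05 with 1 library left out) and Cyp1b1 (-0.76 with ERCC scaling). For 12 against 8 months they were Tspan8 (0.98 with ERCC scaling, 0.067 with the replicate block, -0.48 to 0.54 with 1 left out), Baiap2l1 (-0.034 to 1.97 with 1 left out), Tmem108 (0.99 with ERCC scaling, 0.12 with the block, -1.69 to 1.26 with 1 left out) and Itm2a (-0.63 by limma-voom, -1.26 with the covariate, -0.35 with the block, -0.58 to 0.73 with 1 left out). Cnr1 kept its direction in all 27 alternatives in both comparisons. Among marker lists ERCC scaling gave -0.37 for TH neurons, 0.029 for satellite glia and -0.28 for fibroblasts, and leaving out 1 library gave -0.73 to 0.49 for satellite glia and -0.505 to 0.82 for fibroblasts.

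Pooled single-cell levels moved in 26 of 28 cases with all counts as denominator in none with all cells kept, and in 26 of 28 without the cell highest in the gene. The last 2 settings were chosen after seeing the data. With 3 libraries a group, a biological coefficient of variation of 0.543 and as few as 1 count behind a level, changes of several-fold in low genes could go undetected.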
